A study of Mus musculus with 6 samples.

Results

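The genes described here make sterols and fatty acids. They are 36 genes chosen by symbol from the deposited comparison table and joined by gene identifier to the raw counts. All 36 were found among the 39179 gene identifiers, and all 36 passed the filter that left 14850 genes to test. They fall into 15 enzymes of the sterol arm, 16 genes of the fatty acid arm and 5 regulators shared by both arms. They were measured by RNA-seq in 6 mouse tumour grafts, 3 labelled AXL KO and 3 labelled WT. The design text gives the grafted cells as AXL-/- and AXL+/+, and every label gives the strain as FVB and the source as an MMTV-Neu tumour graft. In that model the MMTV promoter drives the Neu (ErbB2) oncogene mainly in mammary epithelium. AXL is a receptor tyrosine kinase. The labels do not say whether grafts came from separate animals, or whether each genotype was 1 line or clone, so the p-values reflect the spread among 3 grafts a group, which could be technical, and genotype and line cannot be told apart.

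Cells build cholesterol from acetyl-CoA through the mevalonate pathway, then squalene, then a long series of changes to the ring system. Fatty acids are built from the same acetyl-CoA by a carboxylase and a synthase, then lengthened by elongases and given double bonds by desaturases. Both arms are switched on by the SREBP transcription factors, which are held in the endoplasmic reticulum with SCAP and INSIG proteins while sterols are plentiful. In mammary epithelium these pathways serve milk fat, and in tumours they serve membranes.

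SREBP proteins bind sterol regulatory elements near gene starts, usually beside CCAAT or GC boxes. RefSeq promoter windows (GRCm38.p6, 250 bases before to 50 after a start) were at hand for 30 of the 36 genes. The upstream 250 bases are shown for 4 of them, to set a sterol gene that rose beside the central fatty acid gene that rose, the gene with the largest rise and the gene with the largest fall. Capitals mark, on either strand, the sterol regulatory element core TCACNCCAC, the CCAAT box CCAAT, the GC box GGGCGG and the E-box CACGTG, and the last base lies just before the RefSeq start. Hmgcs1 lies on the plus strand (chr13:119690101-119690350), and Fasn (chr11:120824548-120824797), Thrsp (chr7:97417551-97417800) and Fads2 (chr19:10101504-10101753) lie on the minus strand.
Hmgcs1: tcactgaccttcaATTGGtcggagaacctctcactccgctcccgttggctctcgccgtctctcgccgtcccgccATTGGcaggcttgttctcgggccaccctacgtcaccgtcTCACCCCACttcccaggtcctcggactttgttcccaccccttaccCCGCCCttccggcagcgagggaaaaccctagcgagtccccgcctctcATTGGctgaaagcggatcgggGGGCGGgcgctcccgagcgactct
Fasn: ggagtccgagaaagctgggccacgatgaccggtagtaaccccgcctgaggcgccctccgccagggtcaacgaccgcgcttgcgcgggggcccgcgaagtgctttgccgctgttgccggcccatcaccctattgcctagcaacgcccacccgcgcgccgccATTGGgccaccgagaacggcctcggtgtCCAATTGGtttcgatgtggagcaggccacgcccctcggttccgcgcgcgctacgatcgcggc
Thrsp: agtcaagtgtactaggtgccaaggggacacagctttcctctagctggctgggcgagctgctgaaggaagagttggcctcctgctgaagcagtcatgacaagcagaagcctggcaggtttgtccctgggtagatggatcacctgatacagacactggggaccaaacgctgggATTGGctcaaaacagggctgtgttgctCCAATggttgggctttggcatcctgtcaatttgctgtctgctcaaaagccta
Fads2: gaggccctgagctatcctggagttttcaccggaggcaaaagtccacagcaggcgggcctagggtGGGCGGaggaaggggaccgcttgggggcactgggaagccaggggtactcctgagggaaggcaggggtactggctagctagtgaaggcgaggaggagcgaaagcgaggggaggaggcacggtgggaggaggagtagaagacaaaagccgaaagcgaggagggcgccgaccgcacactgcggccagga
Of the 30 genes, 25 held a CCAAT box, or 83.3%, against 41.1% of the 27025 genes with a window. A GC box stood in 23, or 76.7%, against 38.2% of all genes, and an E-box in 5, or 16.7%, against 8.09%. The sterol element core was found only in Hmgcs1 among the 30, at positions -137 to -129, where -1 is the last base before the start, and in 1.44% of all genes. Of the 3 CCAAT boxes shown for Fasn, 2 overlap. The CCAAT box was found in 8 of the 11 genes with a window that were called higher below, in 3 of the 5 called lower and in 14 of the 14 not called. All 36 members passed the filter on counts, while the 27025 genes outnumber the 14850 that did, so the 2 sets also differ in expression. Whether that bears on the shares was not tested. These are matches of letters in a window and not measured binding. The sterol element was searched only in the form TCACNCCAC, so a gene without a match may still hold another form.

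The libraries held 28808499 to 32491807 counts in genes in the AXL KO group and 26541009 to 29977133 in the WT group. Each member had between 87 and 37997 counts in a library. Axl itself had 1360, 2396 and 1767 counts in the libraries labelled AXL KO and 1906, 1761 and 1507 counts in those labelled WT. The groups overlapped (log2 fold change -0.01, edgeR adjusted p = 0.978). The labels do not say which part of Axl was deleted or what the host cells carry, so this count does not check the genotype, and directions below are between libraries as labelled. Of the luminal markers that define this tissue, Krt8, Krt18 and Epcam fell and Erbb2 rose, Cdh1 was not called, and Krt19 had 8 counts or fewer in every library. With chromosome medians removed, Epcam was still called lower, and Krt8, Krt18 and Erbb2 were not called (edgeR adjusted p = 0.197, 0.0571 and 0.244). The summed level of these markers is mostly Erbb2, at a mean of 9207 CPM (counts scaled to the size of the library) in AXL KO and 7193 CPM in WT, and ranged from 11138 to 13255 CPM in the AXL KO libraries and from 10924 to 12282 CPM in the WT libraries. The Erbb2 count may include reads of the Neu (ErbB2) oncogene of this model, which was not tested. In such bulk samples fewer cells of a type and less RNA per cell cannot be told apart.

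In the AXL KO libraries 12 of the 36 genes rose and 6 fell, together 50%, at an adjusted p under 0.05 by the quasi-likelihood test of edgeR, adjusted over all tested genes by Benjamini-Hochberg. The same test called 37.4% of all tested genes, 19.1% higher and 18.3% lower. Under other scalings, tools, filters, the replicate block and with libraries left out, the share called over all tested genes ranged from 24.8% to 38.9%. By arm, 10 of the 16 fatty acid genes were called (62.5%), 3 of the 5 regulators (60%) and 5 of the 15 sterol enzymes (33.3%), so the sterol share lay near the background. The AXL KO and WT libraries did not overlap in 14 of the 36 genes upwards and 6 downwards, against 26.9% and 25.2% of all tested genes, together 52.1%. A stricter adjusted p under 0.01 called 20.7% of all tested genes (10.8% higher, 9.86% lower), and a minimum of 1.5-fold called 18.6% (9.25% higher, 9.34% lower). The authors' deposited table, which called 33.4% of its genes (16.7% in each direction), had the same 18 genes in the same directions. The median log2 fold change was 0.01 for the fatty acid genes, 0.23 for the sterol enzymes and 0.36 for the regulators, and near 0 for all tested genes. The fatty acid genes ranged from -1.29 to 1.74, and the sterol enzymes from -0.56 to 0.48.

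Of the 5 shared regulators, Srebf1, Scap and Insig1 rose in the AXL KO libraries, while Srebf2 and Insig2 did not pass the test. Srebf1 encodes SREBP-1, the family member most tied to fatty acid synthesis (ENSMUSG00000020538, GRCm38 chr11:60199089-60222581). It stood at 651, 557 and 766 CPM in the AXL KO libraries, against 417, 494 and 421 CPM in the WT libraries. Every AXL KO library lay above every WT library, with a log2 fold change of 0.57 ± 0.12 (SE, edgeR adjusted p = 0.00702). Scap, the escort that carries SREBP to the Golgi for cleavage (chr9:110333288-110384950), stood at 133, 110 and 138 CPM in the AXL KO libraries, against 83.6, 91.7 and 92.0 CPM in the WT libraries. The groups did not overlap, and the log2 fold change was 0.51 ± 0.10 (SE, edgeR adjusted p = 0.00384). Insig1, a sterol-sensing retention factor that is itself an SREBP target (chr5:28071363-28078662), stood at 89.2, 73.6 and 67.9 CPM in the AXL KO libraries, against 62.6, 58.1 and 59.5 CPM in the WT libraries. Its AXL KO libraries were the more scattered ones but all lay above the WT libraries, with a log2 fold change of 0.36 ± 0.11 (SE, edgeR adjusted p = 0.0268). Without AXL KO replicate 1 it was 0.24, with an edgeR adjusted p of 0.0936, and without WT replicates 2 and 3 in turn the adjusted p was 0.0638 and 0.0846.

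Srebf2 encodes SREBP-2, the family member most tied to cholesterol synthesis. It stood at 180, 148 and 188 CPM in the AXL KO libraries and at 151, 168 and 175 CPM in the WT libraries. The libraries overlapped, and the 95% interval around a log2 fold change of 0.06 ran from -0.17 to 0.30 (edgeR adjusted p = 0.657). Insig2, the second retention factor, stood at 85.5, 94.2 and 80.1 CPM in the AXL KO libraries and at 85.7, 89.1 and 82.8 CPM in the WT libraries. Here too the groups overlapped, and the interval of the log2 fold change ran from -0.17 to 0.20 (edgeR adjusted p = 0.921). Per exon length, as RPKM (CPM per kilobase of exon), Srebf1 was the most abundant regulator, at 117 RPKM in the AXL KO libraries and 78.9 RPKM in the WT libraries, and Scap was the least abundant, at 17.1 RPKM in AXL KO and 11.97 RPKM in WT.

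**Figure D1:**
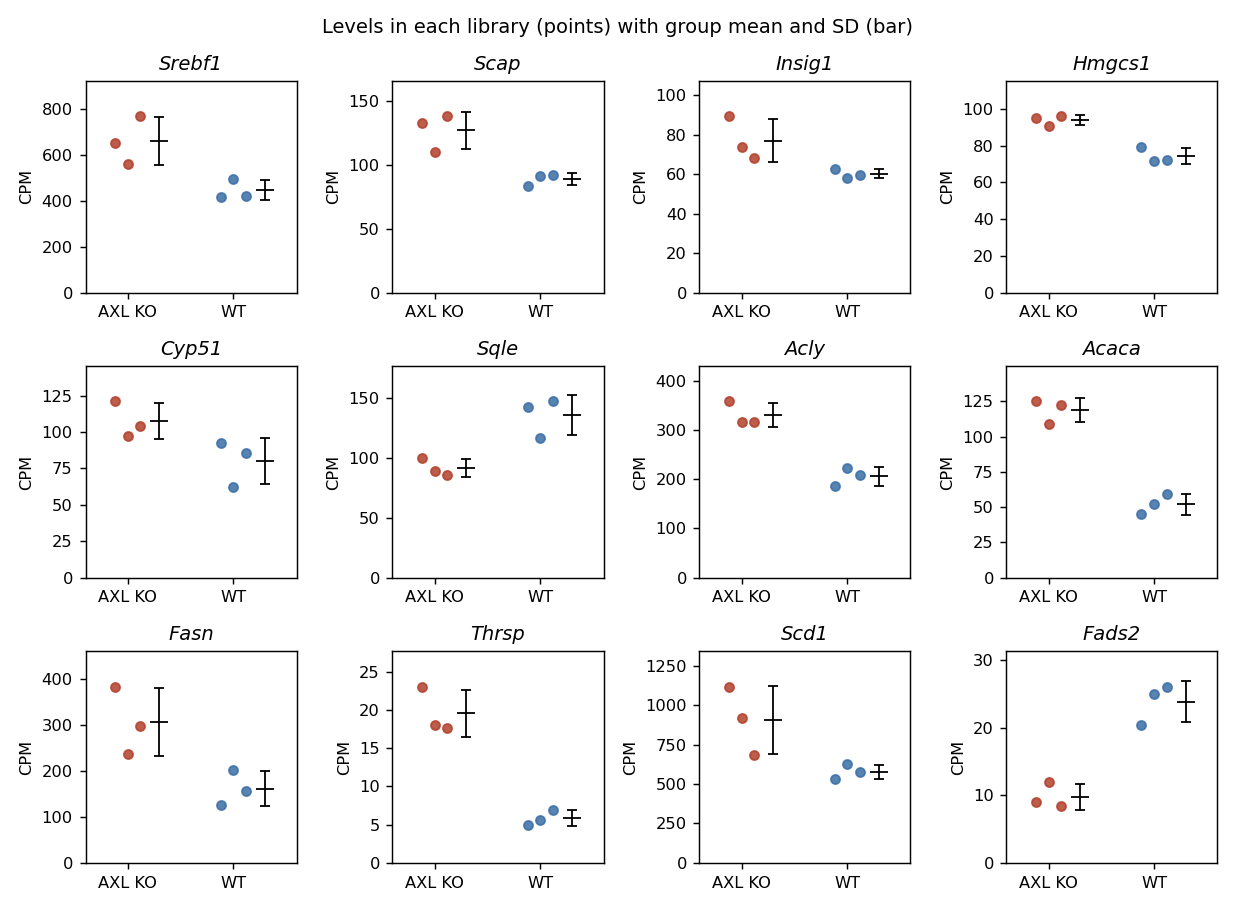
CPM of 12 genes in each library, with AXL KO in red on the left and WT in blue on the right of each panel, and the group mean with its SD beside the points. In Fads2 and Sqle the AXL KO libraries lie below the WT libraries, and in the other 10 genes they lie above them.

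In the sterol arm, 11 of the 15 enzymes had a positive log2 fold change, but only Hmgcs1, Cyp51 and Hsd17b7 rose by the test, and Sqle and Tm7sf2 fell. Hmgcs1, the cytosolic synthase that makes HMG-CoA at the head of the mevalonate pathway and the gene whose promoter holds the sterol element core shown above (ENSMUSG00000093930, chr13:119690379-119708260), stood at 95.2, 90.6 and 95.9 CPM in the AXL KO libraries. In the WT libraries it stood at 79.2, 71.6 and 72.2 CPM. The groups were tight and did not overlap (log2 fold change 0.34 ± 0.07 SE, edgeR adjusted p = 0.00797). The mevalonate kinases and decarboxylase that follow, Mvk, Pmvk and Mvd, lay at 0.25, 0.23 and 0.29 on the log2 scale and did not pass (edgeR adjusted p = 0.211, 0.168 and 0.159), although without AXL KO replicate 2 Mvd lay at 0.41 and passed (edgeR adjusted p = 0.047). Single libraries moved all 3: without AXL KO replicate 1 Mvd lay at 0.14 and Mvk at 0.16, without WT replicate 2 Mvk lay at 0.14 and Pmvk at 0.11, and without WT replicate 1 Mvk lay at 0.38. Idi1, which isomerizes the isoprene unit, stood at 109, 98.3 and 109 CPM in the AXL KO libraries, against 86.1, 56.3 and 97.8 CPM in the WT libraries. Its groups barely separated, and WT replicate 2 was the low library (log2 fold change 0.40 ± 0.17 SE, edgeR adjusted p = 0.0993). Without WT replicate 2 the log2 fold change was 0.20 (edgeR adjusted p = 0.113), and without WT replicate 3 it was 0.57 (edgeR adjusted p = 0.0455). Fdps, which makes farnesyl diphosphate, and Fdft1, which joins farnesyl units to squalene, lay at 0.29 ± 0.16 and 0.21 ± 0.10 (SE) and did not pass. Without AXL KO replicate 1 they lay at 0.15 and 0.13, and without WT replicate 2 Fdps lay at 0.14.

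Sqle, the squalene epoxidase and a rate-limiting step of the sterol arm, fell. It stood at 99.9, 89.0 and 86.2 CPM in the AXL KO libraries, against 143, 116 and 147 CPM in the WT libraries (ENSMUSG00000022351, chr15:59315077-59331192). All AXL KO libraries lay below all WT libraries, 1.48-fold lower in AXL KO (log2 fold change -0.56 ± 0.10 SE, edgeR adjusted p = 0.00353). On chromosome 15 the median over tested genes was -0.29 on the log2 scale, and 42.8% of them were called lower. Sqle lay at -0.28 once that median was removed (edgeR adjusted p = 0.0777). Whether the shift of the chromosome has a part in the fall was not tested.

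After squalene epoxide, Lss, the cyclase that closes the sterol rings, stood at 74.3, 66.1 and 69.5 CPM in the AXL KO libraries, against 54.9, 64.0 and 62.5 CPM in the WT libraries. The groups did not overlap, by a small margin, and the test was not passed (log2 fold change 0.21 ± 0.09 SE, edgeR adjusted p = 0.0862). Lss lies on chromosome 10, whose tested genes had a median of -0.20, and with that median removed its log2 fold change was 0.41, with an edgeR adjusted p of 0.00788. Cyp51, the lanosterol demethylase (chr5:4081145-4104746), stood at 121, 97.3 and 104 CPM in the AXL KO libraries, against 92.3, 62.2 and 85.3 CPM in the WT libraries. It passed narrowly (log2 fold change 0.43 ± 0.15 SE, edgeR adjusted p = 0.0453), and the call was lost in 4 of the 6 fits with a library left out, without AXL KO replicates 1 and 3 and WT replicates 2 and 3 in turn, with adjusted p up to 0.151. It was also lost with upper-quartile factors, with total counts only and with the stricter filter on low levels (adjusted p = 0.0601, 0.0598 and 0.052), and with the median of its chromosome removed (0.42, adjusted p = 0.0578). Without WT replicate 2 its log2 fold change was 0.28. Hsd17b7, a ketoreductase of the demethylation steps (chr1:169949535-169969241), stood at 17.9, 14.6 and 18.1 CPM in the AXL KO libraries, against 11.3, 12.5 and 12.5 CPM in the WT libraries. Its groups did not overlap (log2 fold change 0.48 ± 0.12 SE, edgeR adjusted p = 0.0125), although without AXL KO replicates 1 and 3 in turn the adjusted p was 0.0526 and 0.0516.

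Tm7sf2, a sterol reductase that acts right after Cyp51, fell. It stood at 11.5, 9.89 and 8.44 CPM in the AXL KO libraries, against 15.3, 11.7 and 14.7 CPM in the WT libraries. The highest AXL KO library lay just below the lowest WT library, AXL KO replicate 1 against WT replicate 2 (log2 fold change -0.48 ± 0.15 SE, edgeR adjusted p = 0.0356). The call was lost in 4 of the 6 fits with a library left out (without AXL KO replicates 2 and 3 and WT replicates 1 and 3 in turn, adjusted p up to 0.132), and 12.1% of its exon length overlaps Vps51 on the same strand. Nsdhl, a dehydrogenase of the demethylation steps, and Ebp, the sterol isomerase, lay at -0.02 and -0.10 with intervals from -0.23 to 0.18 and from -0.27 to 0.08. Dhcr7, the last reductase before cholesterol, was the most abundant sterol enzyme per exon length, at 31.8 RPKM in the AXL KO libraries and 27.6 RPKM in the WT libraries. It stood at 203, 167 and 186 CPM in the AXL KO libraries and at 157, 155 and 170 CPM in the WT libraries, which overlapped (log2 fold change 0.20 ± 0.09 SE, edgeR adjusted p = 0.098), and without AXL KO replicate 2 the adjusted p was 0.0383.

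In the fatty acid arm, Acly, Acaca, Fasn, Thrsp, Scd1 and Elovl6 rose in the AXL KO libraries, Fads2, Fads3, Elovl7 and Me1 fell, and 6 genes were not called. Acly, which cuts citrate to release acetyl-CoA in the cytosol (ENSMUSG00000020917, chr11:100476353-100528000), stood at 358, 315 and 316 CPM in the AXL KO libraries, against 186, 223 and 208 CPM in the WT libraries. The groups lay well apart, with 1.604-fold higher levels in AXL KO (log2 fold change 0.68 ± 0.09 SE, edgeR adjusted p = 0.000695). Acss2, which makes acetyl-CoA from acetate, lay at 0.09, with a 95% interval from -0.18 to 0.37 (edgeR adjusted p = 0.58). Acaca, the cytosolic acetyl-CoA carboxylase that commits acetyl-CoA to fatty acids (ENSMUSG00000020532, chr11:84129672-84401651), stood at 125, 109 and 122 CPM in the AXL KO libraries, against 44.8, 51.9 and 59.6 CPM in the WT libraries. The lowest AXL KO library lay far above the highest WT library, and the fold was 2.28 (log2 fold change 1.19 ± 0.11 SE, edgeR adjusted p = 0.000112).

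Fasn, the fatty acid synthase (ENSMUSG00000025153, chr11:120805846-120824547), stood at 384, 237 and 298 CPM in the AXL KO libraries, against 126, 203 and 156 CPM in the WT libraries. The groups did not overlap, but it was the gene of this arm with the widest scatter in the WT libraries, with a coefficient of variation of 24.1% in AXL KO and 23.9% in WT. The log2 fold change was 0.92 ± 0.20 (SE, edgeR adjusted p = 0.00725). Thrsp, the Spot 14 protein that accompanies lipogenesis in liver, fat and mammary gland (ENSMUSG00000035686, chr7:97412938-97417730), was low but had the largest rise. It stood at 23.1, 18.0 and 17.6 CPM in the AXL KO libraries, against 4.97, 5.65 and 6.94 CPM in the WT libraries. Every AXL KO library exceeded every WT library by a wide margin, 3.33-fold on the model scale (log2 fold change 1.74 ± 0.16 SE, edgeR adjusted p = 0.000107).

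Scd1, a stearoyl-CoA desaturase that makes monounsaturated fatty acids (chr19:44394455-44407879), stood at 1119, 918 and 686 CPM in the AXL KO libraries, against 535, 625 and 574 CPM in the WT libraries. The AXL KO libraries were spread, with replicate 3 close to the WT range, and the groups did not overlap (log2 fold change 0.65 ± 0.16 SE, edgeR adjusted p = 0.0115). Scd2, its close relative, was the most abundant gene of the 36 per exon length, at 215 RPKM in the AXL KO libraries and 218 RPKM in the WT libraries, and its interval ran from -0.20 to 0.16 on the log2 scale. Scd genes are alike in sequence, and reads that aligned to more than 1 place were left out of the counts, so the levels of both are uncertain. Elovl6, the elongase of saturated and monounsaturated chains, stood at 90.6, 86.0 and 87.3 CPM in the AXL KO libraries, against 62.4, 67.8 and 76.0 CPM in the WT libraries. The AXL KO libraries were close together and all above the WT libraries (log2 fold change 0.36 ± 0.09 SE, edgeR adjusted p = 0.0125), and without AXL KO replicate 1 the adjusted p was 0.0514. Elovl7, another elongase of saturated chains, fell to 43.3 ± 2.73 CPM in the AXL KO libraries, against 53.4 ± 0.611 CPM in the WT libraries (SD, n = 3 each, edgeR adjusted p = 0.0136), and without AXL KO replicate 1 the adjusted p was 0.0697. Elovl1, which lengthens very long chains, and Elovl5, which lengthens polyunsaturated chains, did not pass, with intervals from -0.19 to 0.19 and from -0.19 to 0.11.

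Of the 3 desaturase genes of the Fads cluster, 2 fell. Fads2, the delta-6 desaturase (ENSMUSG00000024665, chr19:10062765-10101746), stood at 8.96, 11.96 and 8.34 CPM in the AXL KO libraries, against 20.4, 25.0 and 26.1 CPM in the WT libraries. The groups lay far apart, 2.44-fold lower in AXL KO (log2 fold change -1.29 ± 0.16 SE, edgeR adjusted p = 0.000452). Fads3, a related desaturase, fell to 4.27 ± 1.46 CPM in the AXL KO libraries, against 7.79 ± 1.16 CPM in the WT libraries (SD, n = 3 each, edgeR adjusted p = 0.0214), and in 3 of the 6 fits with a library left out the call was lost (without AXL KO replicates 1 and 3 and WT replicate 1 in turn, adjusted p up to 0.0648). Fads1, the delta-5 desaturase, stood at 8.68 ± 1.73 CPM in AXL KO and 11.3 ± 0.822 CPM in WT (SD, n = 3 each) and did not pass (edgeR adjusted p = 0.0849), while without AXL KO replicate 2 the adjusted p was 0.0132. These 3 genes lie side by side on chromosome 19. Of the 6 other tested genes whose start lies within 300 kb of that of Fads2, a window chosen after the values were seen, Fth1, the ferritin heavy chain, fell (log2 fold change -1.36, edgeR adjusted p = 0.000259), and 5 were not called, with Incenp at -0.01, Rab3il1 at -0.07, Fen1 at 0.06, Tmem258 at -0.02 and Dagla at -0.71 (edgeR adjusted p = 0.0598 for Dagla). Fth1 has processed copies elsewhere, and its count is uncertain where reads align to both.

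Me1, the cytosolic malic enzyme that supplies NADPH for fatty acid synthesis (ENSMUSG00000032418, chr9:86581371-86695953), stood at 450, 494 and 390 CPM in the AXL KO libraries, against 663, 681 and 711 CPM in the WT libraries. It fell 1.54-fold with no overlap (log2 fold change -0.62 ± 0.09 SE, edgeR adjusted p = 0.00127), on a chromosome whose median was 0.20. Acacb, the mitochondrial carboxylase that restrains fatty acid oxidation, stood at 37.8 ± 3.10 CPM in AXL KO and 37.1 ± 4.65 CPM in WT (SD, n = 3 each, edgeR adjusted p = 0.866).

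In 4 pairs of family members the ratio within each library, which does not depend on library scaling, was higher in every AXL KO library than in any WT library. The pairs were chosen after the values were seen. Per exon length, the ratio of Acaca to Acacb was 1.76, 1.57 and 2.01 in the AXL KO libraries, against 0.752, 0.691 and 0.951 in the WT libraries, with Acaca the higher of the pair in all AXL KO libraries and Acacb the higher in all WT libraries. The ratio of Scd1 to Scd2 was 1.003, 0.882 and 0.686 in the AXL KO libraries, against 0.538, 0.552 and 0.536 in the WT libraries, which were almost identical. The ratio of Srebf1 to Srebf2 was 4.60, 4.79 and 5.201 in the AXL KO libraries, against 3.53, 3.76 and 3.06 in the WT libraries. The ratio of Insig1 to Insig2 was 1.17, 0.877 and 0.952 in the AXL KO libraries, against 0.820, 0.732 and 0.807 in the WT libraries, the smallest of the 4 shifts. In mean log2 ratio, AXL KO minus WT, the shifts were 1.16, 0.64, 0.50 and 0.34. Since each pair sets a gene that was called against a relative that was not, the separation of the groups follows from that choice and was not tested; 52.1% of all tested genes do not overlap between the groups. Srebf1 and Srebf2 lie on chromosomes 11 and 15, whose medians over tested genes were 0.18 and -0.29 on the log2 scale. With those medians removed, Srebf1 lay at 0.38 and Srebf2 at 0.35, so the shift of their ratio is close to the gap between the chromosomes. For Acaca and Acacb the values with medians removed were 1.005 and 0.02, for Scd1 and Scd2 0.67 and 1e-04, and for Insig1 and Insig2 0.35 and 0.02.

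**Figure D2:**
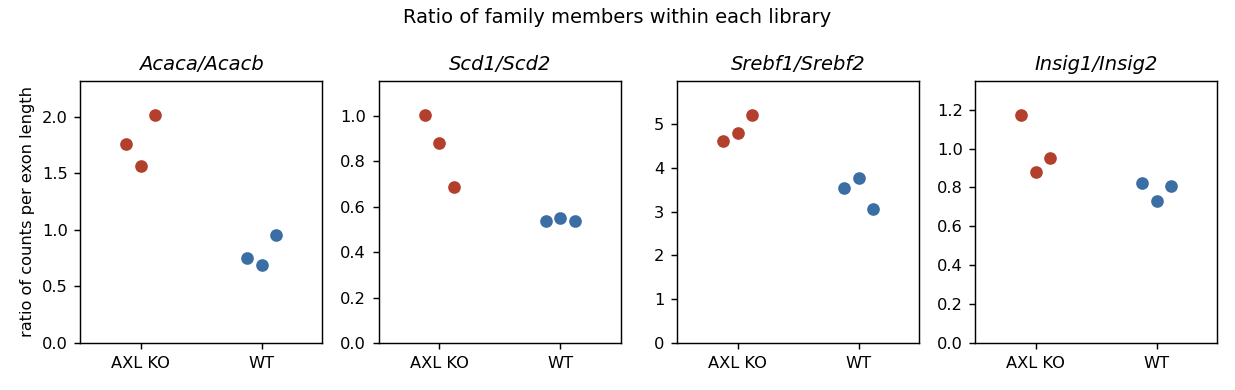
Ratio of counts per exon length between 2 members of a family, in each of the 3 AXL KO libraries (red, left) and the 3 WT libraries (blue, right). The Acaca to Acacb ratio lies between 1.57 and 2.01 in AXL KO and between 0.691 and 0.951 in WT.

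Adipocytes also carry Acaca, Fasn, Scd1 and Thrsp at high levels, so adipocyte markers were set beside these genes. None of the 12 adipocyte markers was called in either direction, and their summed level was 320, 359 and 143 CPM in the AXL KO libraries and 397, 279 and 303 CPM in the WT libraries. The defining markers Adipoq, Plin1, Cidec and Cfd were above 0 in every library, with Adipoq at 339, 360 and 101 counts in AXL KO and 420, 225 and 270 counts in WT. AXL KO replicate 3 was the low library for adipocyte markers and had the lowest Scd1 and Thrsp levels of its group, whereas Acaca and Fasn were lowest in AXL KO replicate 2, which had the highest adipocyte sum of its group. Without AXL KO replicate 3, log2 fold changes were 1.17 for Acaca, 0.95 for Fasn, 1.81 for Thrsp and 0.82 for Scd1. Each was still called (edgeR adjusted p = 0.000513, 0.0174, 0.000312 and 0.00162). Over all 6 fits with a library left out, the highest edgeR adjusted p was 0.000793 for Acaca, 0.0348 for Fasn, 0.000886 for Thrsp and 0.0453 for Scd1. Of 7 tested markers of milk-secreting cells none was called. Their sum, mostly the casein gene Csn3, ranged from 36161 to 42270 CPM in AXL KO and from 31839 to 34699 CPM in WT. Wap and the milk fat thioesterase gene Olah were at 8 counts or fewer in every library. With the median of its chromosome removed, the milk marker Lalba lay at 0.86 and was called higher (edgeR adjusted p = 0.0407). None of 6 macrophage markers was called, with sums of 181 to 281 CPM in AXL KO and 198 to 249 CPM in WT. With the median of its chromosome removed, 1 of them, Adgre1, lay at 0.66 and was called higher (edgeR adjusted p = 0.0117). Of 5 endothelial markers 4 fell, with sums of 126 to 171 CPM in AXL KO and 211 to 240 CPM in WT. The part of these cells in the results was not tested.

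**Figure D3:**
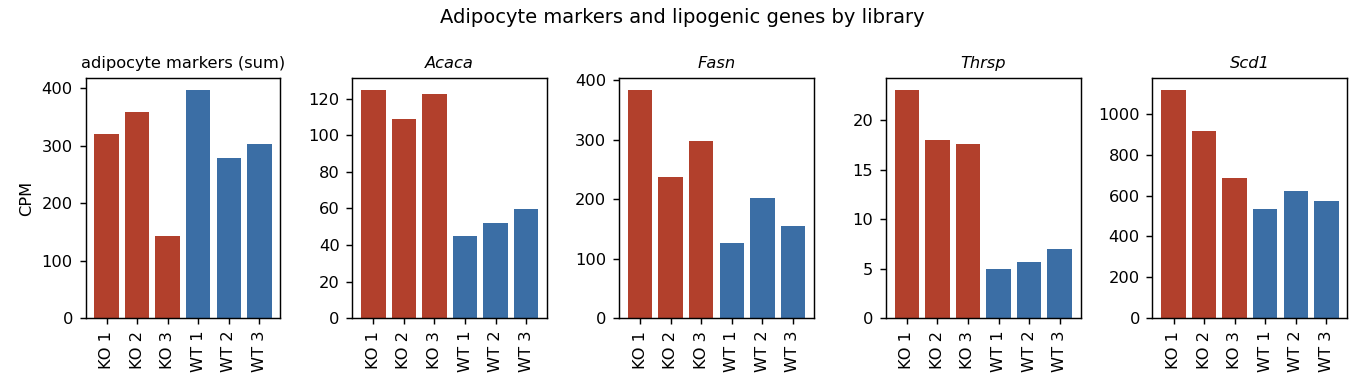
Summed CPM of 12 adipocyte markers and CPM of Acaca, Fasn, Thrsp and Scd1 in each library, AXL KO libraries in red and WT libraries in blue. The adipocyte sum overlaps between groups and is lowest in AXL KO replicate 3, at 143 CPM, whereas the 4 genes are higher in all AXL KO libraries.

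The members share chromosomes unevenly. Srebf1, Acly, Acaca and Fasn all lie on chromosome 11, and all 4 rose. The 1231 tested genes of that chromosome had a median log2 fold change of 0.18, and 33.1% of them were called higher, against 19.1% of all tested genes. Among other tested genes within 5 Mb, the median was 0.25 for Srebf1, 0.07 for Acly, 0.23 for Acaca and 0.08 for Fasn. Removing the median of each chromosome, a step chosen after the values were seen, left 30.0% of all tested genes called (15.1% higher, 15% lower), and the 4 genes lay at 0.38, 0.50, 1.005 and 0.74 and were still called, with edgeR adjusted p of 0.0424, 0.0037, 0.000292 and 0.0225. Scap, on chromosome 9 with a median of 0.20, lay at 0.31 (edgeR adjusted p = 0.0389). Hmgcs1, on chromosome 13, lost its call at 0.20 (edgeR adjusted p = 0.0793). Fdft1, on chromosome 14, lay at 0.33 and was then called higher (edgeR adjusted p = 0.0309). Srebf2, on chromosome 15, lay at 0.35 and was then called higher (edgeR adjusted p = 0.0319), and Elovl1 and Elovl5, on chromosomes 4 and 9, lay at -0.28 and -0.24 and were then called lower (edgeR adjusted p = 0.0352 and 0.0235). Thrsp, Fads2, Scd1 and Elovl6 lie on chromosomes with medians from -0.02 to -0.01.

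**Figure D4:**
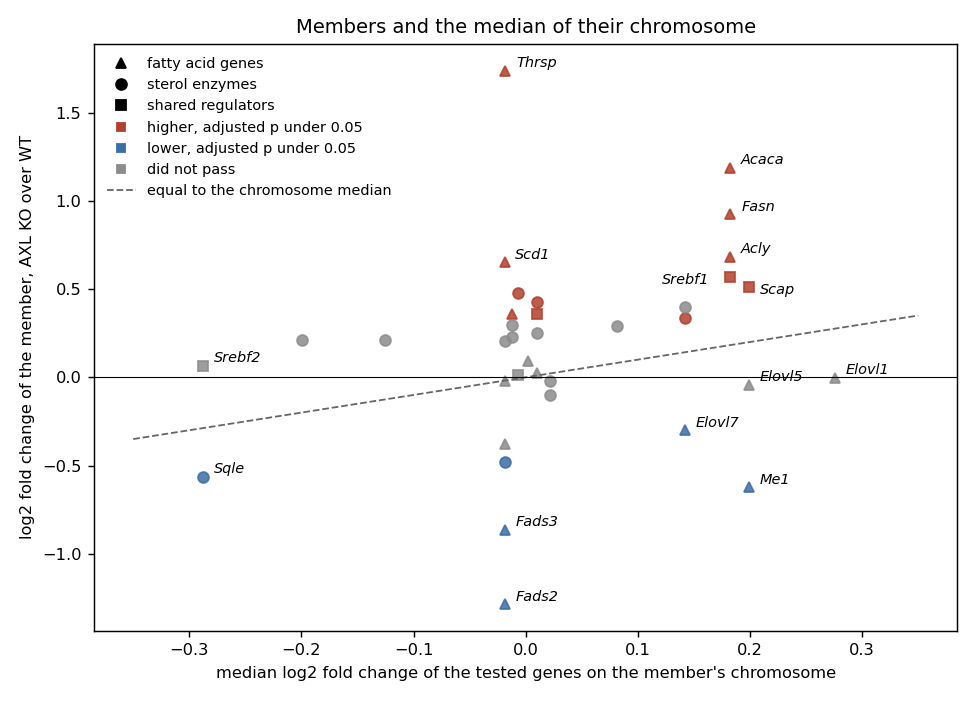
Log2 fold change of each of the 36 genes (vertical) against the median log2 fold change of all tested genes on its chromosome (horizontal), both AXL KO over WT. Chromosome medians run from -0.29 to 0.28, and Thrsp at 1.74 and Fads2 at -1.29 lie far from the dashed line of equality.

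The other genes of the pathways went as follows. Of 8 further sterol synthesis genes, all tested, 5 rose and none fell, so 62.5% were called against 37.4% of all tested genes. Their median was 0.27 on the log2 scale. Ggps1, which makes geranylgeranyl diphosphate, and Mbtps2, a protease that releases SREBP, were among those that rose, by 0.37 and 0.29 on the log2 scale (edgeR adjusted p = 0.0141 and 0.0146). With chromosome medians removed, Mbtps2 lay at 0.27 and was still called (edgeR adjusted p = 0.0244). Ggps1 was no longer called, at 0.23 (edgeR adjusted p = 0.095), and neither were the other genes of this list that rose. Of 13 tested genes of sterol uptake, storage and export 2 rose and 3 fell, together 38.5%, near the 37.4% of all tested genes, with a median of -0.29. Abcg1, a sterol exporter, Scarb1, the HDL receptor, and Npc2, which moves cholesterol out of lysosomes, fell by 1.07, 0.60 and 0.44 on the log2 scale. Npc2 lay at -0.22 and was not called with the median of its chromosome removed (edgeR adjusted p = 0.0667).

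Of 16 tested further genes of fatty acid and glycerolipid handling 3 rose and 5 fell, together 50% against 37.4% of all tested genes, with a median of 0.02. Dgat2, which adds the last chain of triglycerides, fell to 13.1 ± 4.16 CPM in AXL KO, against 40.3 ± 2.99 CPM in WT (SD, n = 3 each, edgeR adjusted p = 0.000567). Agpat2, an earlier step of the same route, and Acsl3, an acyl-CoA synthetase, fell by 0.66 and 0.47 on the log2 scale, while Mlx, a transcription factor partner, rose by 0.33. With the median of its chromosome removed, Mlx lay at 0.15 and was not called (edgeR adjusted p = 0.21). Some other genes of this list, both higher and lower, also lost their calls in that fit, while Dgat2, Agpat2 and Acsl3 kept theirs. Of 5 genes listed under NADPH supply 1 fell (20%), the transketolase gene Tkt, at a log2 fold change of -0.68 (edgeR adjusted p = 0.00113). Transketolase does not itself make NADPH, and the other 4 genes were not called. Of 13 genes of fatty acid oxidation 3 rose and 2 fell, together 38.5%, near the 37.4% of all tested genes, with a median of -0.05. Acadvl and Slc25a20 rose by 0.41 and 0.35 on the log2 scale, and Acaa2 and Hadha fell by 0.51 and 0.26. With chromosome medians removed, Acadvl lay at 0.23 and was still called (edgeR adjusted p = 0.0377), and Slc25a20 lay at 0.15 and was not (edgeR adjusted p = 0.221). The remaining gene of this list that rose was not called either, while Acaa2 and Hadha still were.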

How the data were processed

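Total RNA of 6 tumour grafts was sequenced. The submitters' processing notes name CASAVA 1.8, TopHat2 2.0.10, GRCm38, HTSeq 0.5.3 and DESeq2 1.4.5; no source used here states the settings or the use of strand. Reads of overlapping genes on either strand therefore cannot be told apart: exons of Fdft1 overlap Ctsb over 18.3% of their length and those of Scap overlap 5830462I19Rik over 13.2%. The authors deposited raw counts per gene for each library, and a table with a signal per library (counts divided by a size factor), log2 fold changes with the sign of WT over AXL KO, Wald scores and p-values. Non-unique alignments (25.7% to 29.0% of all lines) were left out of the counts, as were 4.41% to 6.88% in no gene and 0.717% to 1.09% ambiguous ones.

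Genes were kept with filterByExpr (minimum count 10, minimum total 15), scaled by TMM and compared in R 4.3.3 with the quasi-likelihood test of edgeR 4.0.16, with group as the only term, 4 residual degrees of freedom and Benjamini-Hochberg adjustment over 14850 genes. The steps were tested on simulated data. CPM uses TMM-scaled library sizes; RPKM divides CPM by the exon length of GENCODE M21. Standard errors come from the fold change and its F statistic. Replicates of a group differed beyond sampling noise (chi-square per gene 11.1 to 29.6), and all 6 libraries were kept. The members and lists were chosen with earlier results of these data known. All 36 members are named, with values per library for the regulators, for the 8 smallest p-values in each arm and for Sqle, Acaca, Fasn and Scd1, and up to 4 genes are named per further list. Some genes of the further lists are counted but not reported here by name. Alternatives were other scalings, DESeq2 1.42.0, limma-voom 3.58.1, other filters and thresholds, a replicate block and each library left out.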

Additional observations from a re-analysis of the deposited data

How the results depend on the processing

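Across normalizations, tools and filters, the fatty acid arm had 6 genes called higher and 4 lower, and the regulators 3 higher. The sterol arm had 2 to 3 higher and 2 lower in those fits. With a library left out, the counts ranged from 1 to 5 higher and from 1 to 2 lower for sterol enzymes, and from 2 to 5 lower for fatty acid genes, while 1733 to 2828 of all genes were lower. At an adjusted p under 0.01, 1 sterol enzyme was higher and 1 lower, 2 fatty acid genes were lower, and 1610 of all genes were higher and 1464 lower. With a 1.5-fold minimum, 0 sterol enzymes were higher or lower, 0 regulators were higher, and 1374 of all genes were higher and 1387 lower. With chromosome medians removed, an alternative chosen after seeing the data, 1 sterol enzyme was lower. The deviations of same-numbered libraries had correlations of -0.06, -0.13 and 0.09, and those of differently numbered libraries ran from -0.21 to 0.22. With 3 libraries a group these values cannot decide whether same-numbered grafts were paired. With the replicate block 2458 of all genes were higher and 2373 lower, and 4 sterol enzymes were higher.

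Genes near 0 changed sign without a call. With libraries left out, log2 fold changes ranged from -0.0891 to 0.0481 for Nsdhl, -0.0514 to 0.0715 for Insig2, -0.0406 to 0.14 for Acacb, -0.0672 to 0.0287 for Scd2, -0.0388 to 0.0692 for Elovl1, and -0.0027 to 0.19 for Acss2. Insig2 lay at -0.0078 with upper-quartile factors and -0.018 with total counts only, Acacb at -0.0031 with total counts only, Elovl1 at 0.0072 with no filter, and Scd2 at 1e-04 with chromosome medians removed. The cause was not tested. The lowest member, Fads3, had 87 counts in a library, which limits its precision.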
